A study of Mus musculus with 24 samples.

Results

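Lung RNA of mice given the material labelled SES was set against lung RNA of mice given the vehicle alone. The samples were chosen by title, with 3 titles ending in SES and 3 ending in Ctrl, which is 6 of the 24 samples of the series. The animals were female C57BL/6 mice of 7 to 8 weeks. SES mice received 10 µg per day of the material in 50 µl of phosphate-buffered saline (PBS) by oropharyngeal aspiration, a route by which a droplet in the throat is inhaled into the lung, on 4 consecutive days. Ctrl mice received 50 µl of PBS in the same way. Lungs were taken 24 hours after the last dose, and each sample pooled the RNA of 2 mice, so the 3 samples of a group stand for separate pools and not for separate animals. The labels do not say what SES stands for, and there was 1 dose and 1 time. The other groups received rCNT, tCNT, BayTubes, Graphite or fullerene by the same route, and are used here only beside SES. Each sample was 1 dye of a 2-colour Agilent microarray. All values are log2 signals of spots, so levels are compared between samples for the same gene and never between genes.

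Particles that reach the alveoli are taken up by resident macrophages, which with the airway epithelium release chemokines that bring neutrophils, monocytes and eosinophils into the lung. Carbon nanotubes that are fibre-like are known for a type 2 response, in which IL-4 and IL-13 act through STAT6 on macrophages and epithelium and induce genes such as Retnla and the mucus-cell gene Clca1. Repair of the epithelium and the local increase of macrophages and lymphocytes both involve cell division, which raises transcripts of the mitotic and replication machinery.

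The 6 samples lay on 2 of the 3 slides. SES 10 (Cy3) shared slide 2 with Ctrl 1 and Ctrl 3 (both Cy3), SES 11 (Cy5) shared slide 1 with Ctrl 2 (Cy5), and SES 12 (Cy3) lay on slide 1, where no Ctrl sample had its dye. Each group thus had 2 Cy3 samples and 1 Cy5 sample, and no SES sample shared an array with a Ctrl sample. All 15 of 15 alveolar type 2 markers, 12 of 12 alveolar type 1 markers and 17 of 17 endothelial markers were above the 40th percentile of signal in all 6 samples, and the surfactant gene Sftpc was at 17.15 to 17.97 in SES and 17.33 to 17.97 in Ctrl. Heart muscle genes varied between samples of both groups, with list medians relative to the Ctrl mean of 0.72, -0.16 and 0.43 in SES 10, SES 11 and SES 12 and of 0.44, -0.71 and 0.27 in Ctrl 1, Ctrl 2 and Ctrl 3. A patch of the Ctrl 2 array was dim: 95 spots were over 2 log2 units below the other 5 samples, and 93 of them lay within a band of 4294 consecutive spot numbers. The sample in the other dye of that array was also at least 1 log2 unit lower at 93 of the 95 spots. Of these spots, 45 represented a tested gene, among them the peptidyl-prolyl isomerase gene Ppia, at 6.04 in Ctrl 2 and 16.22 to 17.00 in the other 5 samples.

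No gene passed the test of SES against Ctrl. Across 16530 genes, limma was fitted to all 24 samples with a term for dye and array as a block. Its estimate of spread thus pooled all 7 groups. It called 0 genes at a Benjamini-Hochberg adjusted p under 0.05 (0.0% of genes tested), and the smallest adjusted p was 0.0715. At an unadjusted p under 0.05 there were 747 genes, of which 326 were higher in SES (1.97%) and 421 lower (2.55%). With no difference in any gene, a share of 0.05 would be expected at this threshold over both directions. The count of 747 was 405 without SES 10, 470 without SES 12 and 1225 without SES 11. With a variance weight for each group the same model called 18 genes, and with only the 6 SES and Ctrl samples it called 2.

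Effects were small for most genes and were bounded by the data. The median log2 difference over all genes was 0.01, the 5th and 95th percentiles were -0.29 and 0.32, and the median standard error (SE) was 0.16. The 95% interval excluded a 2-fold difference in either direction for 15467 genes (93.6%) and a 1.5-fold difference for 11822 genes (71.5%). Only 2 genes had an interval wholly above a 1.5-fold excess in SES, and 4 had an interval wholly below a 1.5-fold deficit. Point estimates above 1 log2 unit were found for 31 genes, of which 18 had their spot in the dim band of Ctrl 2. Estimates below -1 were found for 6 genes.

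The 2 groups did not overlap for a minority of genes, none of which passed the adjusted threshold. In 1199 genes all 3 SES samples were above all 3 Ctrl samples (7.25% of genes tested), and in 988 all 3 were below (5.98%). With 3 samples against 3, genes without a difference also separate at times, and these shares were not tested against that. A gap of over 0.5 log2 units between the groups was left by 14 genes in the higher and 11 in the lower direction. The 2 comparisons that share slide and dye and no sample, SES 11 minus Ctrl 2 and SES 10 minus the mean of Ctrl 1 and Ctrl 3, gave a higher signal in SES on both slides for 5087 genes (30.8%) and a lower signal on both for 4000 (24.2%). Their correlation across genes was 0.15, and 0.20 over the 15402 genes outside the dim band. Genes are not independent replicates, and the value is a description. Among the 153 genes that differed by over 0.5 in size on both slides, 133 (86.9%) had the same sign.

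**Figure D1:**
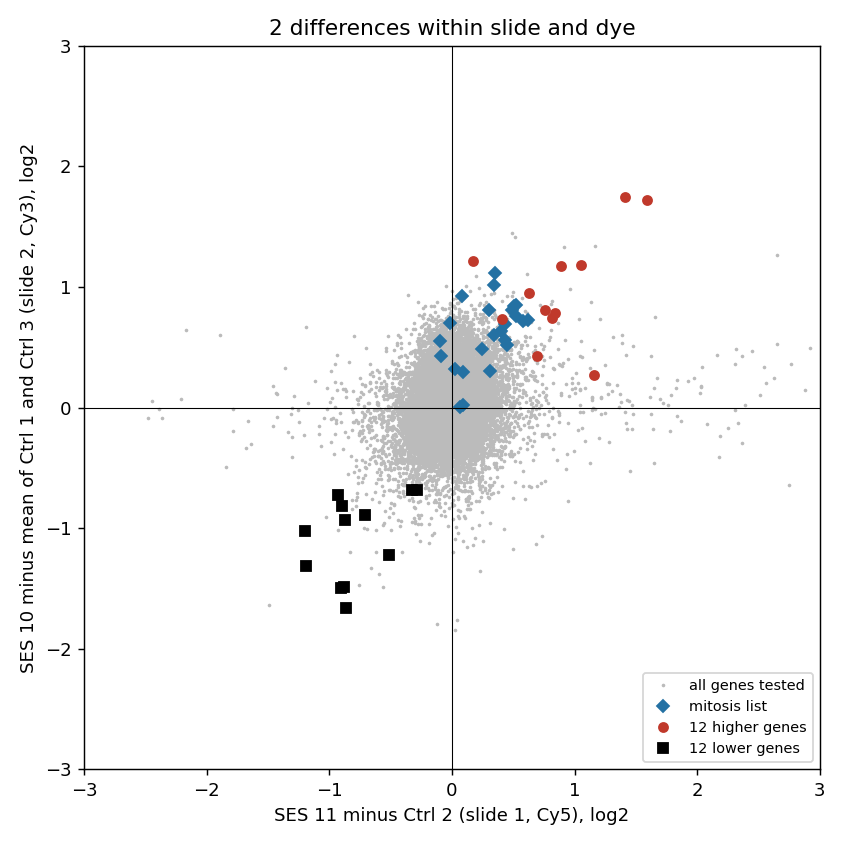
Each grey point is 1 of 16530 genes, with SES 11 minus Ctrl 2 (slide 1, Cy5) on the x axis and SES 10 minus the mean of Ctrl 1 and Ctrl 3 (slide 2, Cy3) on the y axis, both in log2 units; 28 genes lie outside the axes. The 12 higher genes (red circles) lie upper right and the 12 lower genes (black squares) lower left, positions that their choice by small p favours, and 21 of the 24 mitosis genes (blue diamonds) lie upper right.

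Retnla had the largest difference among the 12 higher genes of smallest p. It encodes resistin-like alpha, a secreted protein of alternatively activated macrophages and airway epithelium. Its log2 signal was 15.41, 15.37 and 15.72 in SES 10, SES 11 and SES 12, and 13.92, 13.78 and 13.47 in Ctrl 1, Ctrl 2 and Ctrl 3. Every SES sample was above every Ctrl sample, with a gap of 1.45 between the groups. The fitted difference was 1.76 ± 0.41 (SE, n = 3 against 3), a 3.39-fold excess with a 95% interval of 0.90 to 2.63 log2 units and a limma adjusted p of 0.344. It was 1.59 on slide 1 and 1.72 on slide 2. When only the 6 SES and Ctrl samples entered the fit, the difference was 1.78 ± 0.16 and the limma adjusted p 0.0184. With group variance weights it was 1.74 with a limma adjusted p of 0.0172, so this gene passed the threshold in both. The SE of 0.41 pools the spread of all 7 groups, in which the SD of Retnla ran from 0.19 in SES to 1.13 in Graphite. In whole lung, more cells of a type and more RNA per cell cannot be told apart, here and in all results that follow.

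The promoter window of Retnla is shown because STAT6 motifs are the textbook route to this gene. It is GRCm38.p6 chr16:48842359-48842658 on the plus strand, from RefSeq, a stretch of 300 bases around the start of the gene. Capitals mark TTC followed after 4 bases by GAA, a pattern that reads the same on both strands.
Retnla: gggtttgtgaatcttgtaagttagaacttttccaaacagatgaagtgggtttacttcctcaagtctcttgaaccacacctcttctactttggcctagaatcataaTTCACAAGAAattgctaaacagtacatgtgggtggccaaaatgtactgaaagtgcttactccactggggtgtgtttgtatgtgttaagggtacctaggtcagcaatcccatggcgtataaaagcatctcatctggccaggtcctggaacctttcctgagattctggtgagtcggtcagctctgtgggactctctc
The window held 1 match. Of the 17 windows found for 15 of the 24 tested type 2 genes, 4 held the motif (23.5%), against 7.0% of all 32851 windows. A match in letters is a description and shows no binding.

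Other genes of the type 2 list lay mostly on the higher side, without passing the test. The list had 24 tested members of 26, with a median difference of 0.22 against 0.01 over all genes. In SES 19 members were higher and 5 lower, 8 had all SES samples above all Ctrl samples, and 5 were at an unadjusted p under 0.05, all higher. Over all genes these shares were 7.25% and 1.97%. The list median relative to the Ctrl mean was 0.29, 0.11 and 0.25 in SES 10, SES 11 and SES 12. Agr2, which encodes a disulfide isomerase of mucus-secreting cells, was 8.34, 7.87 and 8.97 in the SES samples and 7.13, 6.90 and 7.58 in the Ctrl samples, a difference of 1.18 ± 0.35 (limma adjusted p = 0.586). The groups did not overlap. Clca1, a product of goblet cells, was highest in SES 12. Its signal was 8.92, 7.64 and 12.16 in SES 10, SES 11 and SES 12 and 7.33, 7.14 and 7.61 in the Ctrl samples. The difference was 2.24 ± 1.07, with an interval of -0.01 to 4.48. With slide 2 alone, where SES 10 is the only SES sample, it was 1.45. The Th2 cytokine gene Il4 differed by 0.04 ± 0.32, and Il13 was under the 40th percentile of signal in all 6 samples, so its difference is not informative. The macrophage genes Arg1 and Chil3 differed by -0.01 ± 0.48 and 0.18 ± 0.39. These intervals all include 0, and for Arg1 the interval runs from -1.02 to 1.00, so a 2-fold difference was not excluded.

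Genes of centriole amplification stood among the higher genes of smallest p. Multiciliated cells of the airway multiply their centrioles before cilia grow, on structures called deuterosomes. Deup1, the scaffold of the deuterosome, was 10.62, 10.51 and 10.30 in SES 10, SES 11 and SES 12 and 9.31, 9.46 and 9.57 in the Ctrl samples. All SES values were above all Ctrl values, and the fitted difference was 0.94 ± 0.21 (limma adjusted p = 0.281). Its other 2 spots gave 0.66 and 0.60. Ccno, a cyclin needed for this amplification, was 10.26, 10.33 and 10.32 in the SES samples and 9.44, 9.58 and 9.46 in the Ctrl samples, a difference of 0.81 ± 0.20. Within either group its 3 values lay closer together than the groups did to each other. Ccna1, another cyclin gene, differed by 1.09 ± 0.30, E2f7, an atypical E2F repressor, by 0.81 ± 0.21, and Foxn4, a forkhead factor of multiciliated precursors, by 0.62 ± 0.19. A second spot of E2f7 gave -0.05, so that gene's difference rested on 1 spot.

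Foxj1, the master regulator of motile cilia, lay on the other side. Its signal was 9.13, 9.77 and 10.03 in SES 10, SES 11 and SES 12 and 10.56, 10.18 and 10.11 in the Ctrl samples. The groups did not overlap, and the difference was -0.61 ± 0.19 (limma adjusted p = 0.775). Mcidas, which acts upstream of Foxj1, differed by 0.002 ± 0.16. The list of multiciliated cell formation was put together after these values had been seen, so its counts only describe it: 17 of 19 tested genes were higher in SES and 2 lower, with a median of 0.21. That median was 0.07 when only slide 1 entered the fit and 0.52 when only slide 2 did. Ciliated cell markers, a list that holds Foxj1 too, had a median of 0.07 over 16 tested genes. Among them the radial spoke gene Rsph1 differed by 0.37 ± 0.17 and the ciliary assembly gene Ccdc39 by 0.55 ± 0.22, neither past the threshold.

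Transcripts of mitosis were the list with the highest median. All 24 tested members of 26 had a positive estimate, from 0.11 to 0.91, with a median of 0.65. All SES samples were above all Ctrl samples for 14 of the 24, and 14 were at an unadjusted p under 0.05, against 7.25% and 1.97% of all genes in that direction. None passed at the adjusted threshold. Cdk1, the kinase that drives entry into mitosis, was 7.41, 7.32 and 7.69 in SES 10, SES 11 and SES 12 and 6.49, 6.80 and 6.62 in the Ctrl samples, a difference of 0.88 ± 0.28 (limma adjusted p = 0.819). Cdca8, a subunit of the chromosomal passenger complex, was 8.81, 8.76 and 8.85 in the SES samples and 7.89, 8.14 and 8.26 in the Ctrl samples. Its difference was 0.76 ± 0.25, and here too the groups did not overlap. Mki67, the usual marker of dividing cells, was 10.69, 9.71 and 10.29 in the SES samples and 9.27, 9.36 and 9.87 in the Ctrl samples, a difference of 0.75 ± 0.33 with SES 11 below Ctrl 3.

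The size of the mitotic difference varied by sample and slide. The list median relative to the Ctrl mean was 0.65, 0.35 and 0.78 in SES 10, SES 11 and SES 12, against -0.17, 0.03 and 0.12 in Ctrl 1, Ctrl 2 and Ctrl 3. A fit of slide 1 alone gave a median of 0.15 and a fit of slide 2 alone 0.67. With each sample left out in turn the median ran from 0.44 to 0.87, the highest without SES 11. In the sample pairs of the same slide and dye, 21 of 24 members were higher on both slides and 0 were lower on both. The 24 genes were measured in the same 6 samples and are not 24 separate observations.

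DNA replication genes followed with smaller values. All 20 tested members of 24 had a positive estimate, from 0.01 to 0.95, with a median of 0.37, and 12 had all SES samples above all Ctrl samples, against 7.25% of all genes. Uhrf1, which couples replication to maintenance of DNA methylation, was 8.64, 8.30 and 8.91 in the SES samples and 7.45, 7.96 and 7.92 in the Ctrl samples, a difference of 0.95 ± 0.31 (limma adjusted p = 0.864). The groups did not overlap. Pcna, the sliding clamp of the replication fork, differed by 0.41 ± 0.17, Cdt1, an origin licensing factor, by 0.45 ± 0.15, and E2f1, a transcription factor of S phase entry, by 0.01 ± 0.31.

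**Figure D2:**
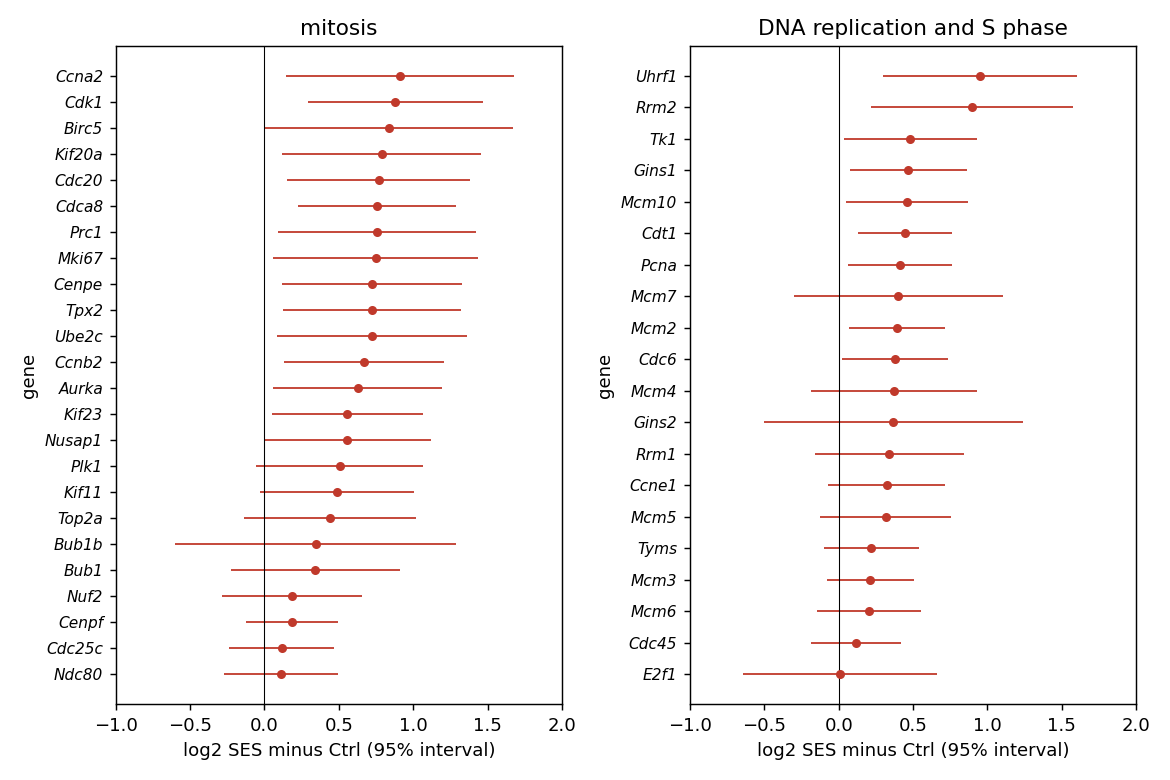
Points are the fitted log2 difference of SES minus Ctrl for each tested gene of mitosis (left, 24 genes) and of DNA replication and S phase (right, 20 genes), and lines are 95% intervals. Every point lies above 0, and none of the genes passed the adjusted threshold.

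Promoters of mitotic genes often carry a cell cycle homology element beside CCAAT boxes, and the window of Cdc20 shows both. Cdc20 activates the anaphase-promoting complex. Its signal was 10.05, 9.94 and 10.36 in SES 10, SES 11 and SES 12 and 9.11, 9.46 and 9.37 in the Ctrl samples, a difference of 0.77 ± 0.29. The window is GRCm38.p6 chr4:118437294-118437593 on the minus strand, from RefSeq, with the letters TTTGAA and CCAAT, searched on both strands, in capitals.
Cdc20: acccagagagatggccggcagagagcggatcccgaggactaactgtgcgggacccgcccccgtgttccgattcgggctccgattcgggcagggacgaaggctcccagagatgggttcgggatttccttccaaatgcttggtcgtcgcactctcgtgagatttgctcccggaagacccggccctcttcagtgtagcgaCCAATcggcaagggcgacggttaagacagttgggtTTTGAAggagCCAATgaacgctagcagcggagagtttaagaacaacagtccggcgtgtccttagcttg
The 3 marked stretches do not overlap. Of 21 windows found for 20 of the 24 tested mitosis genes, 16 held TTTGAA (76.2%), against 17.9% of all windows, and 17 held CCAAT (81.0%), against 37.4%. These shares belong to the list and not to the response.

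Chemokines and cytokines of neutrophil and monocyte recruitment had a median of 0.52 over 17 tested genes of 18. In SES 15 of the 17 were higher and 2 lower, 10 had all SES samples above all Ctrl samples, and 5 were at an unadjusted p under 0.05, all higher, against 7.25% and 1.97% of all genes. Csf2, the granulocyte-macrophage colony-stimulating factor gene, was 8.26, 8.21 and 8.26 in SES 10, SES 11 and SES 12 and 7.79, 8.03 and 7.60 in the Ctrl samples, a difference of 0.58 ± 0.19 (limma adjusted p = 0.819). All SES samples were above all Ctrl samples, by 0.18. Ccl12, a ligand of the monocyte receptor CCR2, was 7.30, 7.15 and 7.53 in the SES samples and 6.70, 6.54 and 6.86 in the Ctrl samples, a difference of 0.69 ± 0.29. The monocyte chemokine gene Ccl2 differed by 0.67 ± 0.37, the neutrophil chemokine gene Cxcl1 by 0.63 ± 0.31, and Il1b by -0.21 ± 0.42. The list median relative to the Ctrl mean was 0.52 in SES 10 and 0.51 in SES 12, and 0.14 in SES 11, against 0.09 in the highest Ctrl sample. A fit of slide 1 alone gave 0.30.

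Markers of the cells that such chemokines attract did not all lie on one side. The neutrophil list had a median of -0.03 over 13 tested markers, with 5 higher and 8 lower. Cxcr1, a chemokine receptor of neutrophils, was nevertheless among the 12 higher genes of smallest p, at 8.31, 7.96 and 7.73 in SES 10, SES 11 and SES 12 and 6.90, 6.55 and 6.23 in the Ctrl samples, a difference of 1.40 ± 0.36 (limma adjusted p = 0.451). Its partner receptor gene Cxcr2 differed by -0.03 ± 0.45. Monocyte and recruited macrophage markers had a median of 0.09 over 13, with all SES samples above all Ctrl samples for 7 (7.25% of all genes). That median ran from -0.03 with array as a fixed term to 0.39 with Cy3 samples only. Relative to the Ctrl mean the list median was 0.23, 0.21 and 0.49 in SES 10, SES 11 and SES 12, against 0.03, -0.04 and 0.04 in the Ctrl samples. The endotoxin co-receptor gene Cd14 differed by 0.47 ± 0.16. Natural killer and cytotoxic cell markers had a median of 0.35 over 17, with 16 higher and 9 wholly above the Ctrl samples, beside the same 7.25%. Klrb1c, the NK1.1 antigen gene, was 7.73, 7.63 and 7.61 in the SES samples and 6.72, 7.03 and 7.13 in the Ctrl samples, a difference of 0.59 ± 0.20. With array as a fixed term in place of a block, the natural killer median was 0.08.

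Ear6, an eosinophil-associated ribonuclease gene, was 8.69, 8.15 and 8.34 in SES 10, SES 11 and SES 12 and 7.61, 7.98 and 7.34 in the Ctrl samples. Its difference was 0.77 ± 0.20, and it was 0.17 on slide 1 and 1.22 on slide 2. The eosinophil and basophil list had a median of 0.17 over 6 tested markers, with 4 higher and 2 lower. All SES samples were above all Ctrl samples for 3 of the 6, against 7.25% of all genes. Among them the receptor gene Il5ra differed by 0.25 ± 0.12, Siglecf, which alveolar macrophages also carry, by -0.01 ± 0.23 and the eosinophil granule gene Prg2 by 0.18 ± 0.33, with all 3 Ctrl samples under the 40th percentile of signal for Prg2. Alveolar macrophage markers had a median of 0.15 over 13. Ctsk, the collagen-degrading cathepsin K gene, which was in that list and in the lysosome list, was 12.18, 12.11 and 11.98 in the SES samples and 10.63, 11.19 and 11.05 in the Ctrl samples, a difference of 1.01 ± 0.29. The SES samples were 0.79 above the highest Ctrl sample. Atp6v0d2, a subunit gene of the lysosomal proton pump, differed by 0.53 ± 0.19.

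Acute phase genes had a median of 0.23 over 14 tested genes. Saa3, the serum amyloid gene that mouse lung makes locally, was 8.85, 9.03 and 9.58 in SES 10, SES 11 and SES 12 and 7.94, 7.99 and 8.30 in the Ctrl samples. All SES values were higher, by 0.55 at the nearest, and the difference was 1.06 ± 0.59 with an interval that included 0 in the fit over all groups. Lcn2, the siderophore-binding lipocalin gene, was 14.25, 14.00 and 14.32 in the SES samples and 13.40, 13.71 and 13.41 in the Ctrl samples, a difference of 0.62 ± 0.30. The NRF2 targets, which respond to oxidants, had a median of 0.04 over 16 tested genes. All 16 had intervals inside a 2-fold difference, against 93.6% of all genes. The endoplasmic reticulum stress list had a median of 0.10 over 17, all 17 also inside a 2-fold difference, beside the same 93.6%.

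**Figure D3:**
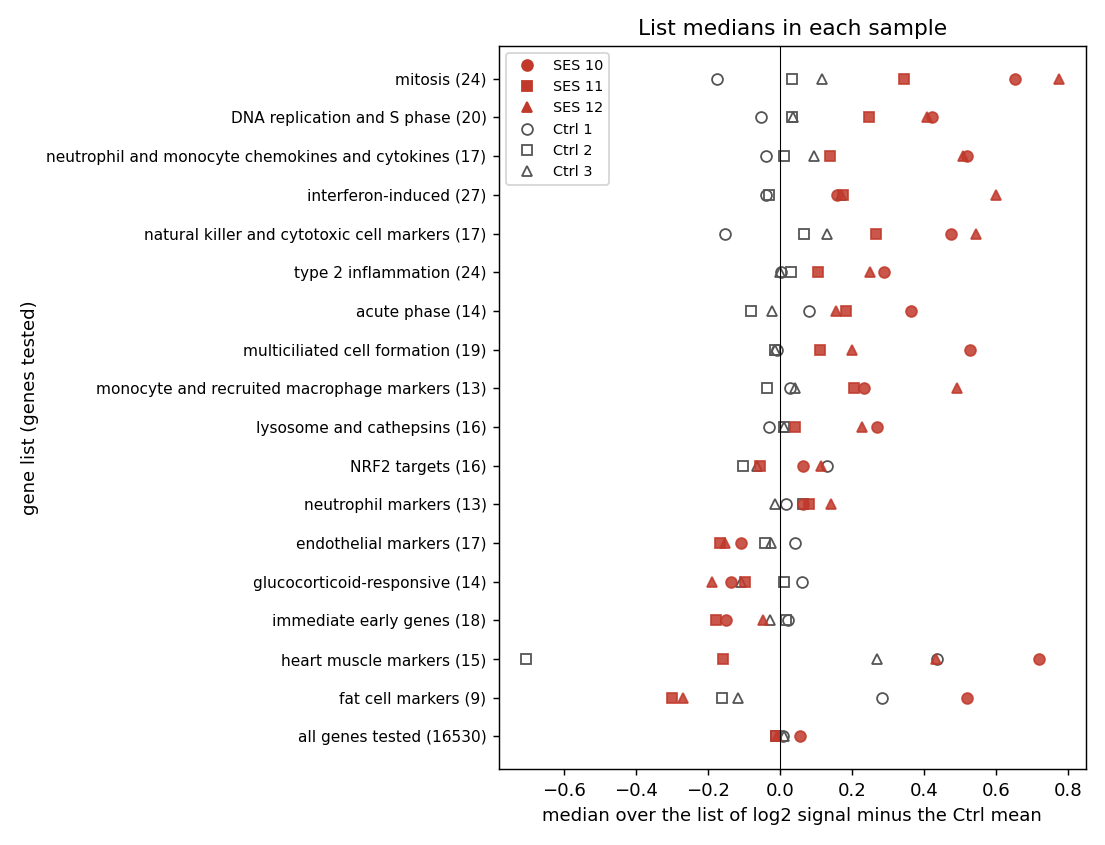
Each row is a gene list with the number of genes tested, and each symbol is the median over the list of log2 signal minus the mean of the 3 Ctrl samples, filled for SES 10, SES 11 and SES 12 and open for Ctrl 1, Ctrl 2 and Ctrl 3. The mitosis medians of the SES samples were 0.35 to 0.78 and those of the Ctrl samples -0.17 to 0.12, while heart muscle and fat cell markers scattered in both groups.

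Interferon-induced genes were highest in SES 12. The list median relative to the Ctrl mean was 0.16, 0.17 and 0.60 in SES 10, SES 11 and SES 12, against -0.04, -0.03 and 0.17 in the Ctrl samples. The fitted median over 27 tested genes of 28 was 0.37, and it was 0.12 without SES 12. In SES 22 were higher and 5 lower, and 8 had all SES samples above all Ctrl samples, against 7.25% of all genes. Ifit3, an interferon-induced protein gene, was 12.22, 11.89 and 12.47 in the SES samples and 11.72, 11.71 and 11.72 in the Ctrl samples, a difference of 0.44 ± 0.18. Isg15, the ubiquitin-like interferon product, was 10.29, 10.99 and 11.70 in the SES samples and 11.19, 11.24 and 11.32 in the Ctrl samples, where SES 10 was the lowest of all 6 and SES 12 the highest.

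Rsad2, which encodes the antiviral enzyme viperin, was 8.35, 8.41 and 8.61 in SES 10, SES 11 and SES 12 and 7.84, 8.03 and 8.22 in the Ctrl samples, a difference of 0.48 ± 0.22 with no overlap. Its promoter window, GRCm38.p6 chr12:26456403-26456702 on the minus strand, from RefSeq, shows the interferon-stimulated response element by which such genes are induced. Capitals mark a pair of GAAA stretches with 2 bases between them, searched on both strands and found here on the strand opposite to the one printed.
Rsad2: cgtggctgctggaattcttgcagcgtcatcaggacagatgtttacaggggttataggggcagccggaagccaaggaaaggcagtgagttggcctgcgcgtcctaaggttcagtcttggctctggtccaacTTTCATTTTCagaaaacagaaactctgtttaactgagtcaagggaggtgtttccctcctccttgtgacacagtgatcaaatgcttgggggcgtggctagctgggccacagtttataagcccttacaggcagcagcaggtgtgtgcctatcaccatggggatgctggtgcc
Of 22 windows found for 20 of the 27 tested interferon-induced genes, 13 held this pattern (59.1%), against 3.4% of all windows.

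The remaining higher genes of smallest p had no shared list. Tex11, a meiotic crossover gene, was 8.34, 8.36 and 8.02 in SES 10, SES 11 and SES 12 and 7.53, 7.51 and 7.59 in the Ctrl samples, a difference of 0.76 ± 0.15 (limma adjusted p = 0.141). The Ctrl values lay close together, and all SES values were higher. A second, dimmer spot of Tex11 gave 0.13. Spag11b, a defensin-like gene, differed by 0.98 ± 0.23, the organic anion transporter gene Slco1a5 by 0.79 ± 0.21, the germ-cell Y-box gene Ybx2 by 0.65 ± 0.17, and Dydc2 by 0.66 ± 0.17, for which Ctrl 2 (6.62) was below Ctrl 1 (7.48) and Ctrl 3 (7.59). A second spot of Dydc2 gave 0.05.

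The 12 lower genes of smallest p included the 4 smallest adjusted p-values of the comparison, all 0.0715 by limma. Ykt6, which encodes a SNARE protein of vesicle fusion, was 9.16, 9.01 and 9.35 in SES 10, SES 11 and SES 12 and 9.87, 9.94 and 9.88 in the Ctrl samples, a difference of -0.76 ± 0.12. Kri1, a ribosome biogenesis factor gene, was 10.36, 10.90 and 10.66 in the SES samples and 11.75, 11.80 and 11.96 in the Ctrl samples, a difference of -1.23 ± 0.21. Kmt5c, a histone lysine methyltransferase gene, was 10.46, 10.98 and 10.87 in the SES samples and 11.73, 11.86 and 12.16 in the Ctrl samples, a difference of -1.14 ± 0.20. In each of these genes no SES sample reached the lowest Ctrl sample.

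Pex10, a ubiquitin ligase gene of peroxisomal import, was 7.21, 7.46 and 7.61 in SES 10, SES 11 and SES 12 and 8.54, 7.97 and 8.31 in the Ctrl samples, a difference of -0.83 ± 0.15. Aldh2, the mitochondrial aldehyde dehydrogenase gene, was 11.84, 12.34 and 12.45 in the SES samples and 13.57, 13.21 and 13.43 in the Ctrl samples, a difference of -1.22 ± 0.24 (limma adjusted p = 0.141). Ddit4, which encodes an inhibitor of mTOR signalling induced by stress and glucocorticoids, was 11.27, 11.68 and 11.85 in the SES samples and 12.90, 12.87 and 12.27 in the Ctrl samples, a difference of -0.99 ± 0.20. In all 3 genes SES 10 was the lowest sample and no SES value reached the Ctrl values. The other 6 were the splicing factor gene U2af2 (-0.81), the uroplakin gene Upk1a (-0.72), the chaperone partner gene Cdc37 (-0.50), Telo2, of a complex that stabilises checkpoint kinases (-0.54), the beta-catenin destruction scaffold gene Axin1 (-0.78) and the p53 target Rprm (-0.90), as log2 differences.

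**Figure D4:**
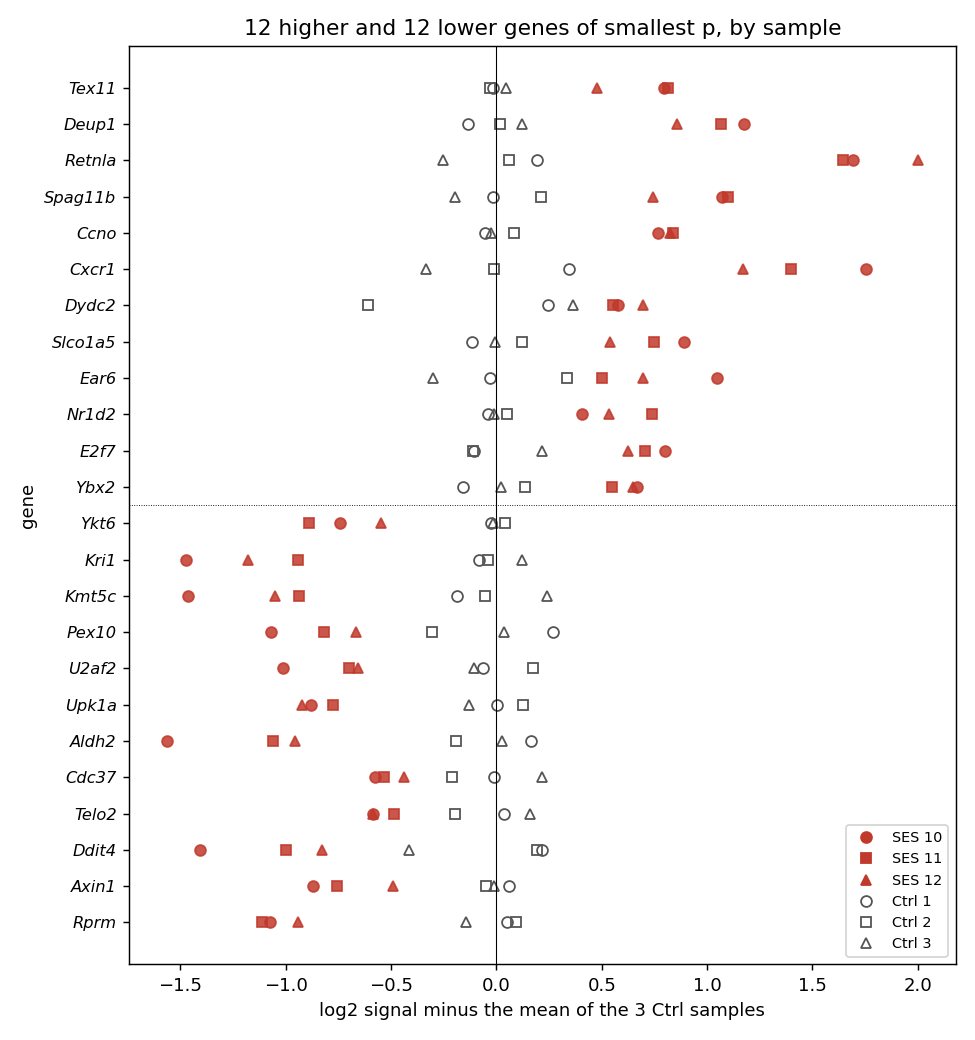
Rows are the 12 higher and the 12 lower genes of smallest p, and symbols are log2 signals minus the mean of the 3 Ctrl samples, filled for SES and open for Ctrl. In all 24 genes the SES and Ctrl symbols do not overlap, which their choice by small p favours.

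Lists were at hand for the processes of 4 of the lower genes, Kri1, U2af2, Ykt6 and Pex10, and their medians were not below 0. Ribosome biogenesis genes had a median of 0.01 over 26 tested genes, with 2 at an unadjusted p under 0.05 and lower, Kri1 among them. Spliceosome genes had a median of 0.05 over 25, SNARE genes 0.03 over 25 and peroxisome genes 0.11 over 17. In each of these 3 lists 1 gene was at an unadjusted p under 0.05 and lower, namely U2af2, Ykt6 and Pex10. Over all genes 2.55% were at such a p and lower. The lists were brought in for these 3 genes and Kri1, so their presence in the counts was set by that choice. Of the 12 higher and 12 lower genes, 8 had another spot past the filter on low signals, 9 spots in all, and 8 of the 9 had the same sign as the spot used. A further gene, Anp32a, is named after its values were seen. It was 10.45, 10.45 and 10.46 in the SES samples and 12.21, 11.95 and 11.97 in the Ctrl samples. With only these 6 samples in the fit its difference was -1.59 with a limma adjusted p of 0.0078. Its other spot gave a difference of -0.002.

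Clock and glucocorticoid-responsive genes had members on both sides. Nr1d2, the nuclear receptor REV-ERB beta gene, was 10.98, 11.31 and 11.11 in SES 10, SES 11 and SES 12 and 10.53, 10.62 and 10.56 in the Ctrl samples, a difference of 0.61 ± 0.16. Its second spot gave 0.56. Per1, a clock repressor that glucocorticoids also induce, was 12.60, 12.96 and 12.60 in the SES samples and 13.27, 13.39 and 13.01 in the Ctrl samples, a difference of -0.54 ± 0.16, and Arntl, which encodes the clock activator BMAL1, differed by -0.67 ± 0.21. The clock list had a median of 0.06 over 18 tested genes, with 2 genes wholly above and 5 wholly below the Ctrl samples, against 7.25% and 5.98% of all genes. In the glucocorticoid-responsive list the median was -0.11 over 14. Fkbp5, a co-chaperone of the glucocorticoid receptor, differed by 0.59 ± 0.16, while Tsc22d3, which encodes the glucocorticoid-induced leucine zipper, differed by -0.51 ± 0.19. The labels give the interval after the last dose and no clock time, so time of day was not tested.

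Endothelial markers leaned to the lower side, with 15 of 17 below 0 and a median of -0.10. All 17 intervals lay inside a 2-fold difference, against 93.6% of all genes. Egfl7, an endothelial secreted factor gene, was 15.35, 15.62 and 15.39 in SES 10, SES 11 and SES 12 and 15.94, 15.94 and 16.30 in the Ctrl samples, a difference of -0.58 ± 0.20. The fitted list median was -0.002 without Ctrl 1 and -0.015 when only slide 1 entered the fit. The median of SES 11 minus Ctrl 2, which does not use Ctrl 1, was -0.16. Among 16 fibroblast markers the median was -0.04, and 4 were at an unadjusted p under 0.05, all lower, against 2.55% of all genes: Col13a1 (-0.74), Spon2 (-0.58), Dpt (-0.54) and Pi16 (-0.45). Col1a1, the main fibrillar collagen gene, differed by 0.33 ± 0.37, and the matrix and fibrosis list had a median of -0.01 over 23.

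Gene length was set beside that of all genes for the genes at an unadjusted p under 0.05. The median gene span was 16.6 kb for the 326 higher genes, 15.7 kb for the 421 lower genes and 20.5 kb for all tested genes. Promoter GC was not compared, for lack of windows. Only 77.0% and 77.4% of the genes of these sets had a promoter window, and 79.2% of all tested genes.

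Levels in the other groups are given beside SES without comparison through the shared Ctrl samples. Retnla averaged 13.72 ± 0.23 (SD, n = 3) in Ctrl and 15.50 ± 0.19 (n = 3) in SES, 17.67 ± 0.26 (n = 3) in rCNT, 16.63 ± 0.31 (n = 3) in tCNT, 16.35 ± 0.30 (n = 4) in BayTubes, 15.05 ± 1.13 (n = 4) in Graphite and 15.26 ± 0.45 (n = 4) in fullerene. SES lay between the nanotube groups and Ctrl, and its neighbours Graphite and fullerene lay within their spread of it. Ccno averaged 9.49 ± 0.07 in Ctrl, 10.30 ± 0.04 in SES and 9.93 to 11.54 in the other groups. Kri1 averaged 11.84 ± 0.11 in Ctrl and 10.64 ± 0.27 in SES, and 10.54 ± 0.25 in Graphite to 11.63 ± 0.40 in rCNT. For all 12 lower genes Ctrl had the highest mean of the 7 groups, and for 9 of the 12 higher genes it had the lowest. Since the genes were chosen on those Ctrl samples, an extreme Ctrl mean is favoured, and over all genes Ctrl was highest for 16.4% and lowest for 20.0%.

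**Figure D5:**
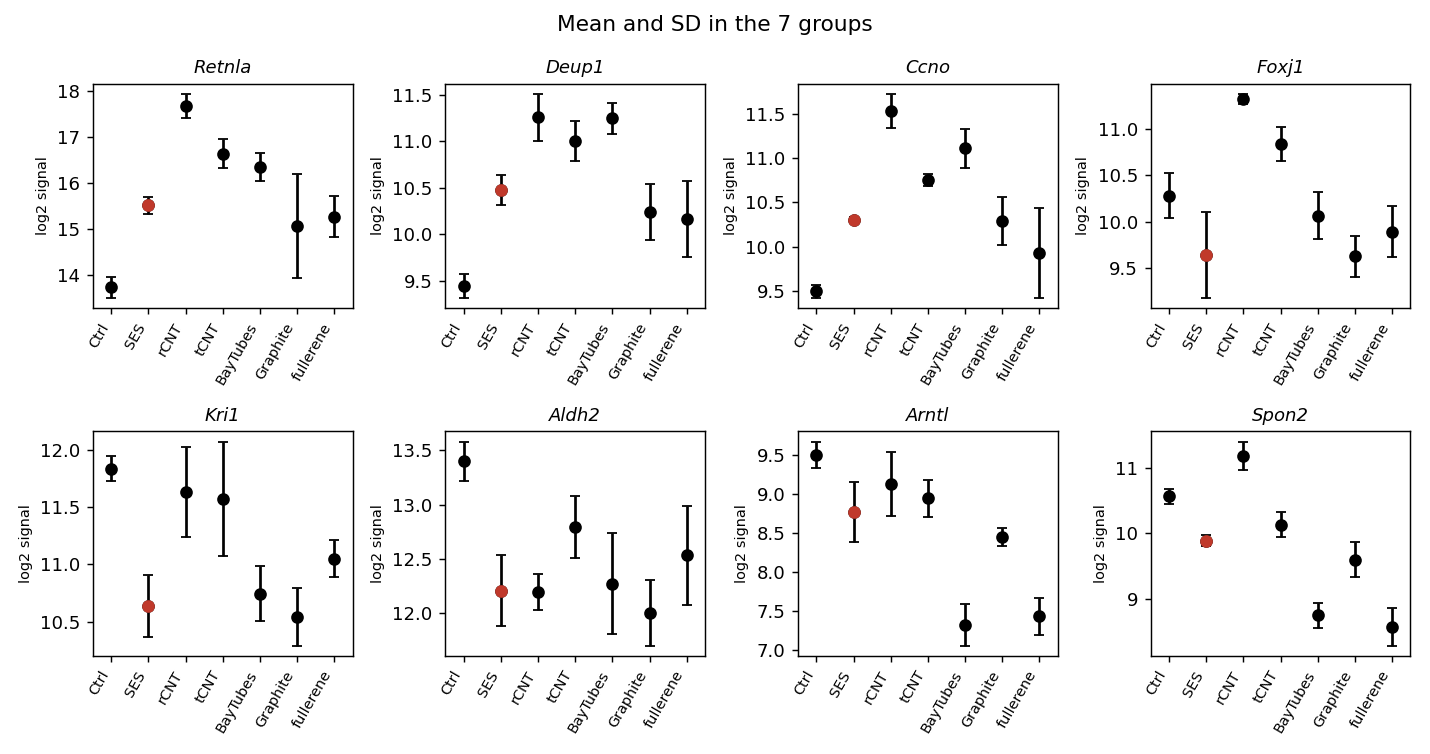
Points are group means of log2 signal and bars the SD (n = 3 for Ctrl, SES, rCNT and tCNT and 4 for BayTubes, Graphite and fullerene), with SES in red and a separate y axis for each of 8 genes. Retnla in SES (15.50) lies above Ctrl (13.72) and below rCNT (17.67), and Spon2 in SES (9.89) lies above BayTubes (8.74) and fullerene (8.57).

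Differences between SES and the other materials were tested directly in the same fit. Against rCNT 2819 genes passed the threshold (17.1%), with 1160 higher and 1659 lower in SES, and 1177 without SES 11. The lower genes of smallest p were the eosinophil chemokine gene Ccl24, which was lower in SES by -6.04 ± 0.49 log2 units (limma adjusted p = 5.05e-07), the neutrophil chemokine gene Cxcl5 (-4.63), the monocyte chemokine gene Ccl7 (-4.48), the resistin-like beta gene Retnlb (-4.22) and Il6 (-2.74). Retnlb was under the 40th percentile in all 3 SES samples, so its value depends on the background signal there. That percentile was 5.688 to 5.755 over the samples. Il6 (5.63 to 5.96) and Cxcl5 (5.78 to 6.04) in SES and Spag11b in rCNT (mean 5.76) lay near it, so the same limit holds for them. The higher genes were Pon1, a lipid-bound esterase gene (2.19), Spag11b (2.15), Bex2 (1.38), Mtcl1 (0.89) and Slco2b1 (0.88). Of the 24 mitosis genes 22 passed and were lower in SES, with a list median of -1.58. Retnla was lower in SES than in rCNT by -2.25 ± 0.42 (adjusted p = 1.20e-03).

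Fewer genes separated SES from the other 4 materials. Against tCNT 2 genes passed (0.0121%), both lower in SES: Foxj1 at 9.65 ± 0.46 (SD) in SES and 10.84 ± 0.18 in tCNT, a difference of -1.13 ± 0.18 (SE, limma adjusted p = 0.0461), and Lrrc43, a leucine-rich repeat gene, at -0.56 ± 0.09. Without SES 10 or without SES 11 no gene passed, and without SES 12 only 1 did. Against BayTubes 5 genes passed (0.0302%). Spon2, a matrix protein gene, was higher in SES by 1.23 ± 0.15 and Arntl by 1.52 ± 0.19 (both limma adjusted p = 8.49e-04). Tspan4, a tetraspanin gene, was lower by -0.86 ± 0.12, Foxn4 by -1.10 ± 0.17 and Mthfd1l, of mitochondrial folate metabolism, by -0.70 ± 0.11. The count was 2 without SES 10, 3 without SES 11 and 2 without SES 12.

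Against fullerene 10 genes passed (0.0605%), 4 of them members of the clock list. Arntl was higher in SES by 1.48 ± 0.19 (limma adjusted p = 1.02e-03), and the clock genes Per1, Per2 and Cry1 were lower. Per1 and Per2 differed by -0.84 ± 0.14 and -1.16 ± 0.20. Cry1 averaged 5.87 in SES, near the cutoff of the filter on low signals (5.688 to 5.755), so its difference depends on the background signal there. Spon2 was higher by 1.38 ± 0.15 and Aacs, an enzyme gene of ketone use, by 0.55 ± 0.10, while Tspan4, Mthfd1l, Slc25a33, a mitochondrial carrier gene, and Wee1, a mitotic kinase gene, were lower. The count was 5 without SES 10, 5 without SES 11 and 4 without SES 12. Against Graphite limma called 0 genes (0.0%), with 1023 at an unadjusted p under 0.05, and for 15520 genes (93.9%) the interval excluded a 2-fold difference. SES 11 shared its array with a tCNT sample, SES 12 with a BayTubes sample and SES 10 with a fullerene sample, which the block for array takes into account.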

How the data were processed

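The deposited values were log2 signals, 1 per spot and sample, with 62976 spots; the authors used Agilent Feature Extraction and limma, per the submitters' processing notes, without versions or settings given in the sources used here. Once sorted, the columns matched to within 0.0856, so no further normalization was applied. Arrays give no read depth, and precision rests on how many samples there are. A platform gene name was found for 31465 spots and updated through a RefSeq table of assembly GRCm38.p6 (29050 by accession, 2061 by symbol, 349 by synonym, 5 kept).

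Genes above the array's 40th percentile in 3 or more samples were kept, 16530 of 20738, each at its brightest spot on average. All 24 samples were fitted with limma 3.58.1 (R 4.3.3, statmod 1.5.0 for the block), with group and dye as terms and array as a random block (correlation 0.399), 16 residual and 3.54 prior degrees of freedom. Tests were 2-sided with Benjamini-Hochberg adjustment over all genes of a comparison. The fitted difference borrows from array partners and can differ from the difference of means. The code was tested on simulated data. P-values measure the spread between pools, since the labels do not say how the pools were drawn.

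Named genes were the 12 of smallest p in each direction, the lead genes of 47 lists and the 2 members of smallest p in each, and the 5 of smallest p in each direction against each other material. Members, lists and the naming rule were chosen with earlier results of these data known, and the multiciliated list of 19 tested genes after its values were seen. Alternatives left out the dye term, the block, the filter or each sample, changed the spot rule, centring, normalization and variance model, or used 1 slide or dye. Groups share no replicate numbers in the labels.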

Additional observations from a re-analysis of the deposited data

Results flagged for a closer look

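SES differed from other materials in the same fit, which tests the difference itself. The numbers of genes that passed limma's adjusted threshold were 2819 against rCNT, 10 against fullerene, 5 against BayTubes and 2 against tCNT. Against Graphite 0 passed, with 1023 at an unadjusted p under 0.05. Groups of 3 samples are too small for the test of a sample that stands apart.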

How the results depend on the processing

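No paired analysis was possible because SES and Ctrl share no replicate numbers. The count of 0 genes past the threshold for SES against Ctrl was 2 with only the SES and Ctrl samples. It was 18 with a variance weight per group and 4 at an adjusted p under 0.1. The other alternatives that kept several samples in both groups gave 0, and leaving out each sample gave 0 to 0. On either slide alone SES or Ctrl had a single sample, so counts for those fits are not given. The count at an unadjusted p under 0.05, 747, was 1367 with only the SES and Ctrl samples, 1506 with group weights, 1438 with slide as a fixed term and 2000 with slide 2 only, and 405 to 1225 with each sample left out. Against rCNT the count of 2819 was 1860 with group weights and 1177 to 2627 without 1 SES sample. Against tCNT the count of 2 was 0 with no dye term, 0 with no array block, 15 with group weights and 0 to 1 without 1 SES sample. Against BayTubes the count of 5 was 3 with no block, 45 with group weights and 2 to 3 without 1 SES sample. Against fullerene the count of 10 was 5 with no block, 30 with group weights and 4 to 5 without 1 SES sample. Requiring a gap of at least 0.5 left 14 of the 1199 genes above and 11 of the 988 below. The cause was not tested, beyond the smaller or differently weighted set of samples in each fit. Leaving out genes in the dim band of Ctrl 2, an alternative chosen after seeing the data, gave 0 genes past the threshold and 682 at an unadjusted p under 0.05. All 24 genes of smallest p kept their direction in all 23 alternatives of the fit. Their choice by small p in the same samples favours this. The median of the mitosis list was positive in all 23, from 0.15 (slide 1) to 0.87 (without SES 11). Several list medians near 0 changed sign. The matrix and fibrosis median kept its sign in 8 of the 23 alternatives and the neutrophil median in 14. The clock median turned to -0.01 without SES 11, and with array as a fixed term the glucocorticoid-responsive and immediate early medians turned to 0.01 and 0.002. With 3 pools a group, a 1.5-fold difference was excluded for only 71.5% of genes.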

Other observations

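Spots without a gene name in the platform table were fitted separately. Of 16650 that passed the filter, limma called 0, with 517 at an unadjusted p under 0.05, of which 195 were higher and 322 lower in SES. In SES 12, 57 spots were over 2 log2 units above the other 5 samples, with a median of 9.24 against 5.30; the BayTubes sample in the other dye of that array was also at least 1 unit higher at 38 of them. Of these, 10 represented a tested gene. SES 10 and SES 11 had 3 and 5 such spots.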
